A study of Mus musculus with 6 samples.

Results

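Osteoclasts, the cells that resorb bone, arise from the monocyte and macrophage lineage under the control of 2 extracellular signals. RANK ligand (Tnfsf11), made by osteoblast-lineage cells, hypertrophic chondrocytes and lymphocytes, binds RANK (Tnfrsf11a) on the precursors and drives their fusion. Osteoprotegerin (Tnfrsf11b) is a secreted decoy receptor that captures RANK ligand before it reaches RANK. Colony stimulating factor 1 (Csf1) and interleukin 34 (Il34) both bind the receptor kinase Csf1r, which keeps macrophages and osteoclast precursors alive and dividing. In the ear, osteoprotegerin is known as a product of the spiral ligament, and mice that lack it remodel the otic capsule, a bone that otherwise turns over little. The 6 genes of this axis were chosen by name and were found as 6 rows of 55401 in the deposited count table.

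RNA of mouse inner ear cells was sequenced in bulk in 6 libraries, 3 labelled wild type (WT) and 3 with the genotype Pou3f4y/- (KO). Pou3f4 is an X-linked POU-domain factor of the otic mesenchyme whose loss causes deafness. The labels give no strain, age, allele or dissection, give all cells as the cell type but interstitial cells in another field, and do not say whether libraries came from separate animals, so p-values measure only the spread between these libraries, which may be technical. The study asked how pigmentation of the inner ear arises in the mutant. Totals ranged from 18409409 to 23323953 counts. Pou3f4 fell from 58.3 to 114 CPM (counts per 1000000, after scaling of library sizes) in the WT libraries to 1.22 to 1.96 CPM in the KO libraries (adjusted p = 0.0128, edgeR). Xist reads were present in WT replicates 1 and 2 and KO replicates 2 and 3, and Y-linked reads in WT replicate 3 and KO replicate 1, so both groups held both kinds, although the KO genotype is written with a Y.

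Markers of the inner ear were present in every library, with a sum of 214 to 360 CPM over 8 genes of the sensory epithelium. Bone and marrow were present too: 12 osteoblast and osteocyte genes summed to 7516 to 11035 CPM. WT replicate 1 stood apart. It held 619.97 CPM of 4 tested keratinocyte genes, against 5.32 to 9.05 CPM in the other 5 libraries, and the fewest neutrophil transcripts, 199 CPM against 828 to 1177 CPM. Summed skeletal muscle genes ranged over 125 to 9388 CPM among WT libraries and 22.3 to 698 CPM among KO libraries. For the 6 members, the ratios and the medians of the pathway lists, values without WT replicate 1 are given where it moves a call or moves the value by over 1.5 times. Calls of pathway genes without it are given as a total over the lists, and by gene for the osteoclast effector list. The part of its keratinocyte reads in any result was not tested.

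None of the 6 genes passed the threshold (0 of 6 at an adjusted p under 0.05, quasi-likelihood test of edgeR), a test that called 78 of 19687 genes, or 0.396% (42 higher in KO, 0.213%, and 36 lower, 0.183%). At an unadjusted p under 0.05 there were 3 of 6, Csf1r, Tnfrsf11a and Il34, against 19.6% of all genes tested (8.71% higher and 10.9% lower). Those 3 were also the members whose libraries did not overlap between the groups, which was true of 27.7% of all genes (15.0% higher and 12.7% lower). DESeq2 called 2 of 6, Csf1r and Tnfrsf11a, both higher in KO, against 9.03% of the genes it tested (3.61% higher), and limma-voom called 0 of 6 against 0.406%. The number of genes that edgeR called was 1814 without WT replicate 1, 760 without WT replicate 2 and 0 without WT replicate 3 or any 1 KO library. In bulk tissue, fewer cells of a type and less RNA per cell cannot be told apart.

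**Figure D1:**
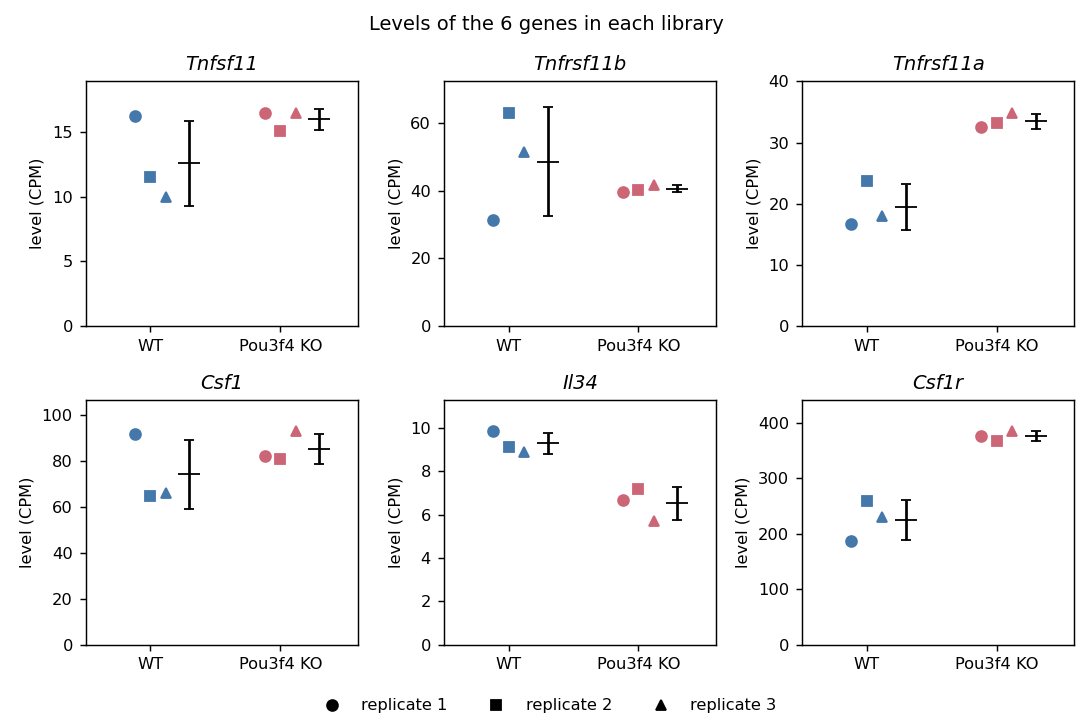
Level of each gene in CPM (y axis, from 0) in the 3 WT and 3 Pou3f4 KO libraries (points, shaped by replicate number), with the mean and SD at the right of each group. Csf1r and Tnfrsf11a lie higher in every KO library than in any WT library, Il34 lies lower, and the other 3 genes overlap.

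Compared per kilobase of exon, Csf1r was the most abundant of the 6 in both groups, with a mean of 38.9 ± 6.16 CPM per kb in WT and 65.1 ± 1.53 CPM per kb in KO (SD, n = 3 each). In WT, Tnfrsf11b (17.2 ± 5.68 CPM per kb) and Csf1 (14.1 ± 2.88 CPM per kb) came next, and their libraries overlapped. Tnfsf11 (5.63 ± 1.46 CPM per kb) and Il34 (4.74 ± 0.249 CPM per kb) overlapped as well, and Tnfrsf11a was the lowest at 3.25 ± 0.630 CPM per kb. In KO the order was Csf1r, Csf1 (16.2 ± 1.24 CPM per kb), Tnfrsf11b (14.4 ± 0.360 CPM per kb), Tnfsf11 (7.17 ± 0.366 CPM per kb), Tnfrsf11a (5.59 ± 0.204 CPM per kb) and Il34 (3.32 ± 0.391 CPM per kb), with no overlap between neighbours. Tnfrsf11a and Il34 thus stood in opposite order in the 2 groups, in every library.

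The sequences before the start of transcription are shown for 3 members, the ligands Tnfsf11 and Csf1 and the receptor Tnfrsf11a, which were not picked by their levels. They come from RefSeq (GRCm38.p6), and windows of 3 of the 6 genes were used here. Windows of Tnfrsf11b, Il34 and Csf1r were not searched, so the motif results below do not cover those members. Each sequence is printed 5′ to 3′ on the strand of the gene, with the letters TATAA on either strand in capitals. The windows are chr14:78308044-78308293 (minus strand), chr3:107760470-107760719 (minus strand) and chr1:105780473-105780672 (plus strand), the last shortened to 200 bases so that it stops before the first annotated base of the gene.
Tnfsf11: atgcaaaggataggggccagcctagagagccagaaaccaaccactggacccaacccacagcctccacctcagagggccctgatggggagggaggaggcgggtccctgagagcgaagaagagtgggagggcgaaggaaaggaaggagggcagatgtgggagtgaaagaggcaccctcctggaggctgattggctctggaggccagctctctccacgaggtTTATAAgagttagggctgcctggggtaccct
Csf1: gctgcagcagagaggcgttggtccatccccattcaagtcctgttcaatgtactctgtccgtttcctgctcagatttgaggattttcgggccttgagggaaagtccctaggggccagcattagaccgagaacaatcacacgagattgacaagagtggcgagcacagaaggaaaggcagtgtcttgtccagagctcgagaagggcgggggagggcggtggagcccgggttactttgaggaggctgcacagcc
Tnfrsf11a: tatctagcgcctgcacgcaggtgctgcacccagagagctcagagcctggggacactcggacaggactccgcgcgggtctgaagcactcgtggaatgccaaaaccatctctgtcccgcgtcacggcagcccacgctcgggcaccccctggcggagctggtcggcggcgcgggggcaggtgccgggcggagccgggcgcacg
The 250 bases before the start of Tnfsf11 held TATAA on both strands, as 2 overlapping matches that began 31 and 30 bases before the start. Of 32851 windows of that length, 22.8% held TATAA on either strand. The windows of Csf1 and Tnfrsf11a held none. Over the 250 bases searched, the Tnfrsf11a window was rich in G and C (73.6%, with 31 CpG), Tnfsf11 had 60.4% and 4 CpG, and Csf1 had 56.4% and 10 CpG, against medians of 52.4% and 6 CpG over all windows. TGANTCA (AP-1), GAGGAA (core of PU.1 sites) and TGTGGT (core of RUNX sites) were found on neither strand in any of the 3 windows, and in 6.75%, 23.3% and 14% of all windows.

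RANK ligand and its decoy receptor differed most between WT libraries. Tnfsf11 (ENSMUSG00000022015, mm10 chromosome 14, 78277445 to 78308043, minus strand) stood at 16.3, 11.6 and 9.97 CPM in WT replicates 1 to 3 and at 16.5, 15.1 and 16.5 CPM in KO replicates 1 to 3. WT replicate 1 lay within the KO range and the other 2 WT libraries below it. The fitted log2 difference, KO over WT, was 0.35 (SE 0.20, adjusted p = 0.371, edgeR). Without WT replicate 1 it was 0.56 and passed the threshold (adjusted p = 0.0404), and over 15 alternatives the adjusted p ranged from 0.0404 to 0.637.

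Cells known to make RANK ligand were measured beside it. The osteoblast and osteocyte list summed to 7516, 10974 and 9655 CPM in WT and to 11035, 10462 and 10489 CPM in KO, and WT replicate 1 was the lowest. Tnfsf11 equalled 0.216%, 0.105% and 0.103% of that sum in WT and 0.150%, 0.144% and 0.157% in KO. Relative to those genes, Tnfsf11 was thus highest in WT replicate 1 and lowest in the other 2 WT libraries, with KO between them. Ibsp, a bone matrix protein, made up 48.5% of the sum. The median log2 difference of the 12 genes was 0.33, with 0 called by edgeR. Of the 12, 5 were higher at an unadjusted p under 0.05 (8.71% of all genes tested) and 0 lower. Without overlap 6 were higher (15.0% of all genes tested). The 9 cartilage genes summed to 10847, 9455 and 11053 CPM in WT and to 7372, 5814 and 6558 CPM in KO. Of them 2, the collagen genes Col2a1 and Col9a1, fell (edgeR, against 0.183% of all genes tested), and Col2a1 made up 51.9% of the sum. Markers of hypertrophic chondrocytes overlapped between the groups, Col10a1 at 831 to 1745 CPM in WT and 672 to 1438 CPM in KO, and Ihh at 11.8 to 22.8 and 9.41 to 20 CPM. Col11a2 lay higher in every KO library than in any WT library. Lymphocyte genes were low, with sums of 10.3 to 16.3 CPM over 5 tested T cell genes and 22.3 to 167 CPM over 7 B cell genes across the 6 libraries. The part of these cells in the level of Tnfsf11 was not tested.

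Tnfrsf11b (ENSMUSG00000063727, chromosome 15, 54250619 to 54278484, minus strand) stood at 31.3, 62.9 and 51.4 CPM in WT and at 39.7, 40.3 and 41.6 CPM in KO. WT replicate 1 was the lowest of the 6 libraries and WT replicates 2 and 3 the highest, so the groups overlapped. The coefficient of variation was 33% in WT and 2.5% in KO. The fitted difference was −0.26 (SE 0.23, adjusted p = 0.569, edgeR). Leaving out WT replicate 1 gave −0.51, past the threshold (adjusted p = 0.0255, edgeR). Leaving out WT replicate 2 gave −0.03 (adjusted p = 0.951, edgeR), and these were the lowest and highest values over 15 alternatives.

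Markers of otic mesenchyme and of spiral ligament fibrocytes, a source of osteoprotegerin known in the ear, did not overlap between the groups in their sum. The 10 genes of that list summed to 1942, 3653 and 3569 CPM in WT and to 1589, 1634 and 1633 CPM in KO. Otor, a secreted protein of the cochlea, and Car3, a carbonic anhydrase also abundant in skeletal muscle, fell (2 of 10, edgeR, against 0.183% of all genes tested). The median log2 difference of the list was −0.89, against −0.01 over all genes tested. Car3 made up 29.6% of the sum, at 737 CPM in WT replicate 1 and 412 to 442 CPM in KO. Coch and Otos lay lower in WT replicate 1 (203 and 72 CPM) than in any KO library (246 to 263 and 78.7 to 87.6 CPM). Without overlap, 4 of the 10 genes were lower in KO and 1 higher, against 12.7% and 15.0% of all genes tested. Tnfrsf11b equalled 1.61%, 1.72% and 1.44% of the sum in WT and 2.50%, 2.47% and 2.55% in KO. Every KO library thus held more Tnfrsf11b relative to those genes than any WT library, a comparison chosen after the values were seen and not tested. The direction depended on the list. The mean of this sum in KO was 0.53 times that in WT, and that of the osteoblast and osteocyte sum was 1.14 times. Relative to the osteoblast and osteocyte sum, every KO library held less Tnfrsf11b than any WT library, which was not tested either.

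The ratio of Tnfsf11 to Tnfrsf11b, taken per kilobase of exon, was 0.655, 0.232 and 0.244 in WT replicates 1 to 3. It was 0.524, 0.471 and 0.499 in KO replicates 1 to 3. Counting error alone gave 95% intervals of 0.566 to 0.756 for WT replicate 1, 0.200 to 0.268 for WT replicate 2 and 0.209 to 0.285 for WT replicate 3 (Clopper-Pearson). The 3 KO libraries lay close together, above WT replicates 2 and 3 and below WT replicate 1, and the highest WT ratio was 2.83 times the lowest. The means were 0.377 ± 0.241 in WT and 0.498 ± 0.0265 in KO (SD, n = 3 each). The mean log2 difference, KO minus WT, was 0.58, a ratio 1.49 times that of WT (exact permutation test, two-sided, p = 0.4, and 0.6 adjusted over the 3 ratios tested, with 0.1 the smallest p that 3 against 3 libraries allow). Without WT replicate 1 the log2 difference was 1.06, or 2.09-fold, with every KO library above both WT libraries (exact permutation p = 0.1, the smallest that 2 against 3 allow). It was 0.32 and 0.35 without WT replicates 2 and 3 in turn (exact permutation p = 0.7 each). WT replicate 1 was thus the library that moved the difference most, and its counting interval did not meet those of the other WT libraries.

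**Figure D2:**
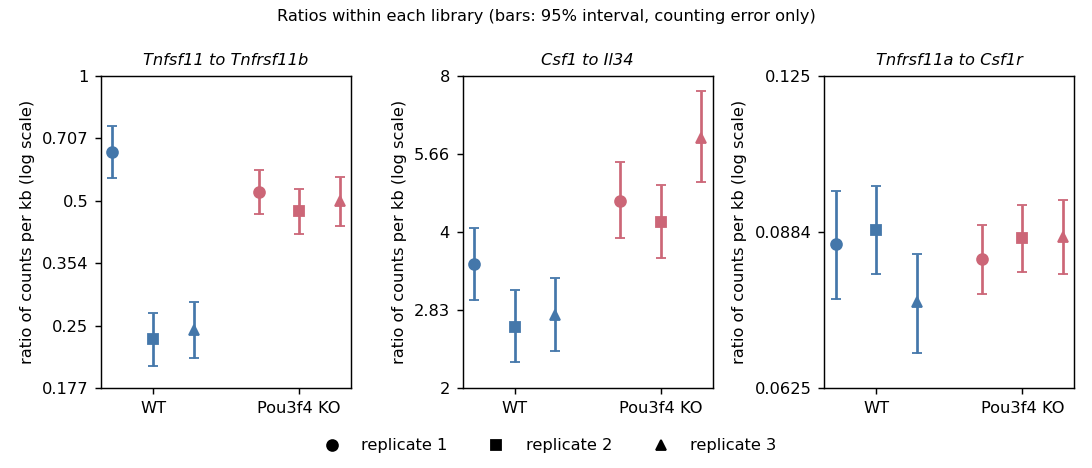
Ratios within each library of counts per kilobase (y axis, log scale, with its own range in each panel) in WT and Pou3f4 KO, with 95% Clopper-Pearson intervals that cover counting error only. For Tnfsf11 to Tnfrsf11b the KO libraries lie between WT replicate 1 and the other 2 WT libraries, for Csf1 to Il34 the groups do not overlap, and for Tnfrsf11a to Csf1r they overlap.

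Of the 2 ligands of Csf1r, Il34 lay lower in every KO library and Csf1 overlapped between the groups. Il34 (ENSMUSG00000031750, chromosome 8, 110741829 to 110805924, minus strand) stood at 9.83, 9.12 and 8.90 CPM in WT and at 6.66, 7.19 and 5.68 CPM in KO. Every KO library lay below every WT library, by at least 1.71 CPM. The fitted difference was −0.51 (SE 0.15, adjusted p = 0.162, edgeR). It did not pass in any of the 15 alternatives, where it ranged from −0.58 to −0.42 with adjusted p of 0.0608 to 0.48. The gene held 105 to 176 counts per library. Gm15895 and Gm15894, on the other strand, cover 3.83% and 1.12% of the Il34 exons, with 60 and 82 counts in all against 949 for Il34.

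Neurons and keratinocytes are known sources of interleukin 34. The 8 neuron genes summed to 966, 2304 and 1514 CPM in WT and 1032, 1103 and 841 CPM in KO. Of them 1, the surface glycoprotein gene Thy1, fell (edgeR, against 0.183% of all genes tested). Il34 was highest in WT replicate 1, the WT library with the lowest neuron sum and with nearly all of the keratinocyte reads. It differed by less than 1 CPM among the WT libraries, whose keratinocyte sums were 619.97, 5.63 and 9.05 CPM. Of the markers of Schwann cells, which ensheathe the axons, Pmp22 fell from 1127 ± 225 to 471 ± 41.8 CPM and Prx from 227 ± 34 to 117 ± 5.93 CPM (SD, n = 3 each; adjusted p = 0.049 each, edgeR). The part of neurons, keratinocytes or Schwann cells in the lower Il34 of the KO libraries was not tested.

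Csf1 (ENSMUSG00000014599, chromosome 3, 107741048 to 107760469, minus strand) stood at 91.8, 64.6 and 66.3 CPM in WT and at 82.4, 81 and 93 CPM in KO. As for Tnfsf11, WT replicate 1 lay within the KO range and the other 2 WT libraries below it. The fitted difference was 0.20 (SE 0.15, adjusted p = 0.484, edgeR), and 0.37 without WT replicate 1, where it passed the threshold (adjusted p = 0.0392). Over 15 alternatives the adjusted p ranged from 0.0392 to 0.778.

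The ratio of Csf1 to Il34 was 3.46, 2.63 and 2.76 per kilobase in WT and 4.59, 4.18 and 6.07 in KO. Every KO library exceeded every WT library, WT replicate 1 included. The 95% interval of WT replicate 1 from counting error alone, 2.96 to 4.07, overlapped those of KO replicate 1 (3.89 to 5.45) and KO replicate 2 (3.56 to 4.93). It did not meet that of KO replicate 3 (4.985 to 7.47, Clopper-Pearson). The means were 2.95 ± 0.448 and 4.95 ± 0.996 (SD, n = 3 each), a log2 difference of 0.74 or 1.67-fold (exact permutation test, two-sided, p = 0.1, the smallest that the design allows, and 0.3 adjusted over the 3 ratios). Leaving out each library in turn gave log2 differences of 0.58 to 0.86, with exact permutation p of 0.1 to 0.2.

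Both receptors lay higher in every KO library than in any WT library. Csf1r (ENSMUSG00000024621, chromosome 18, 61100598 to 61132149, plus strand) stood at 187, 258 and 229 CPM in WT and at 377, 367 and 384 CPM in KO. The lowest KO library exceeded the highest WT library by 108 CPM. The fitted difference was 0.74 (SE 0.13, adjusted p = 0.0669, edgeR), or 1.67-fold. DESeq2 called it (adjusted p = 2.79e-05). EdgeR called it when WT replicate 1 was left out (0.61, adjusted p = 0.0122) and when WT replicate 2 was (0.85, adjusted p = 0.029). Over 15 alternatives the adjusted p ranged from 2.79e-05 to 0.365, the highest without KO replicate 1. Hmgxb3, on the other strand, covers 15.12% of the Csf1r exons and held 3841 counts over the 6 libraries against 36976 for Csf1r.

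Tnfrsf11a (ENSMUSG00000026321, chromosome 1, 105780718 to 105847981, plus strand) stood at 16.7, 23.8 and 17.9 CPM in WT and at 32.5, 33.1 and 34.8 CPM in KO. The groups were 8.70 CPM apart at their nearest libraries. The fitted difference was 0.78 (SE 0.15, adjusted p = 0.084, edgeR), or 1.72-fold. DESeq2 called it (adjusted p = 0.000432). EdgeR called it when WT replicate 1 was left out (0.67, adjusted p = 0.0281) and when WT replicate 2 was (0.95, adjusted p = 0.0265). The adjusted p over 15 alternatives ranged from 0.000432 to 0.395. Without WT replicate 1 edgeR called 5 of the 6 members, all but Il34, against 9.06% of genes (3.60% higher and 5.46% lower), and without WT replicate 2 it called both receptors, against 3.78% (1.41% higher).

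**Figure D3:**
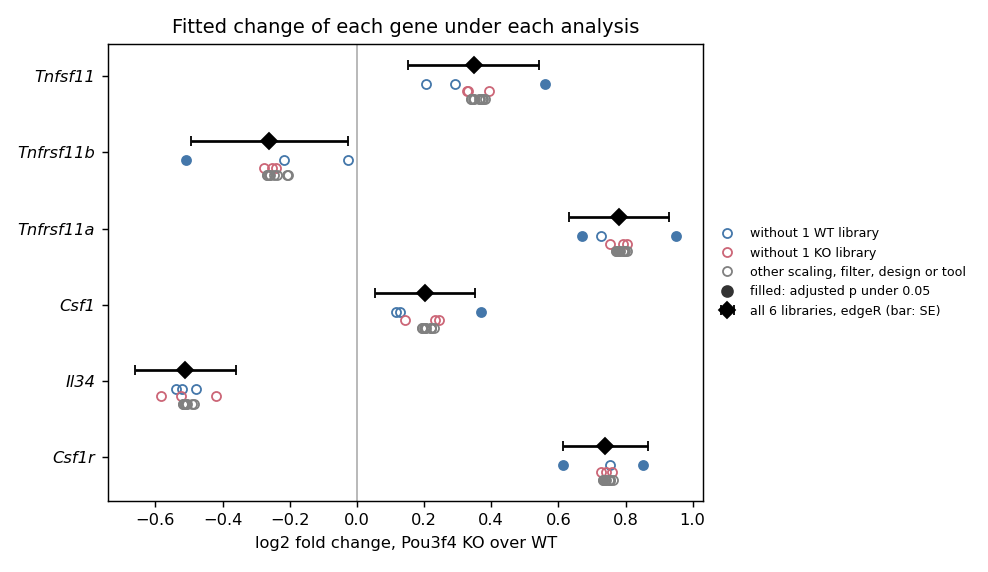
Fitted log2 fold change of each gene, KO over WT (x axis). Black diamonds with SE bars are the edgeR fit on all 6 libraries, circles are fits without 1 library or with another scaling, filter, design or tool, and filled circles have an adjusted p under 0.05. Each gene keeps its sign in all 15 alternatives, and Tnfrsf11b reaches −0.03 in one of them.

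The proportion of the 2 receptors to each other overlapped between the groups. Per kilobase, Tnfrsf11a equalled 0.0860, 0.0888 and 0.0756 of Csf1r in WT and 0.0832, 0.0872 and 0.0875 in KO. The log2 difference of this ratio was 0.05 (exact permutation test, two-sided, p = 0.8, and 0.8 adjusted over the 3 ratios), and −0.02 without WT replicate 3. The SD of its log2 values was 0.12 in WT and 0.04 in KO. A p of this size does not show that the ratio is equal in both groups.

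Both receptors sit on macrophages as well as on osteoclasts and their precursors, so they were set beside the summed levels of both cell types. The 15 effector genes of mature osteoclasts summed to 4961, 8177 and 7125 CPM in WT and to 11219, 11434 and 12025 CPM in KO, 1.71 times the WT mean. The 12 macrophage and monocyte genes summed to 323, 390 and 404 CPM in WT and to 487, 461 and 520 CPM in KO, 1.31 times the WT mean. Within the macrophage list Cd68, a lysosomal glycoprotein that osteoclasts share, had a fitted log2 difference of 0.64 and Adgre1, a surface marker of macrophages, of 0.50, while C1qa, a complement subunit, had means of 35.1 ± 0.389 CPM (WT) and 32.6 ± 0.357 CPM (KO; SD, n = 3 each). None of the 12 passed with edgeR, and 4 were higher and 0 lower at an unadjusted p under 0.05, against 8.71% and 10.9% of all genes tested.

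Csf1r equalled 3.78%, 3.16% and 3.21% of the osteoclast sum in WT and 3.36%, 3.21% and 3.19% in KO, so the groups overlapped. Against the macrophage sum it equalled 58.1%, 66.3% and 56.7% in WT and 77.3%, 79.5% and 73.8% in KO, with no overlap. Tnfrsf11a showed the same overlap, at 0.337%, 0.291% and 0.252% of the osteoclast sum in WT and 0.289%, 0.290% and 0.290% in KO. Against the macrophage sum it equalled 5.18%, 6.10% and 4.44% in WT and 6.67%, 7.19% and 6.70% in KO, with no overlap. Neither receptor is in either list. These proportions were chosen after the values were seen and carry no test, and Ctsk alone made up 34.4% of the osteoclast sum. The part of either cell type in the receptor levels was not tested.

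**Figure D4:**
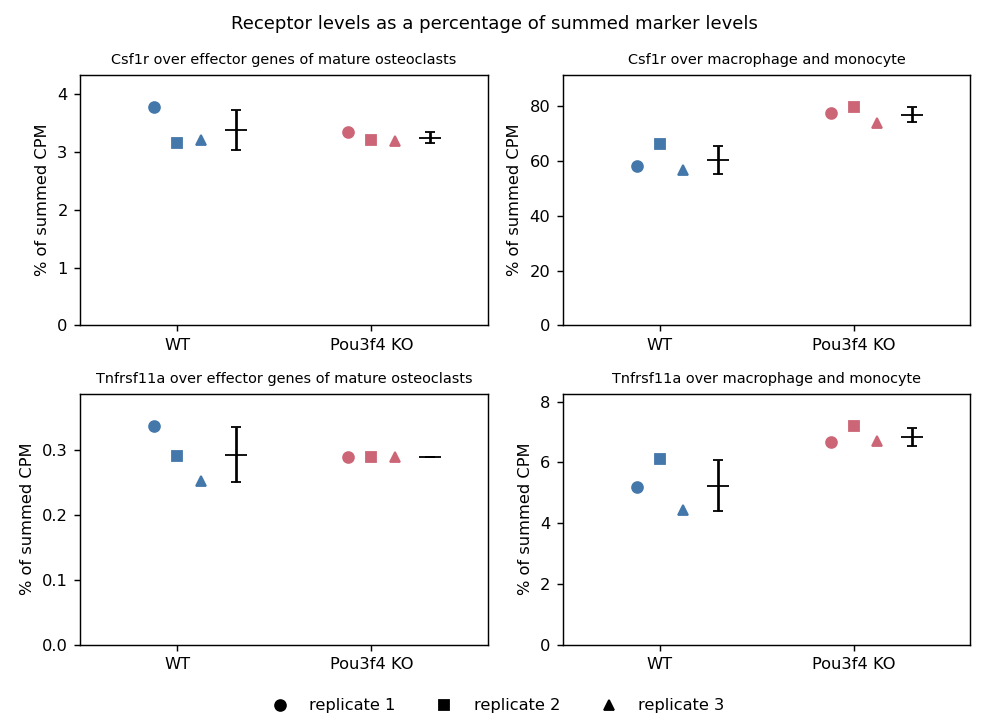
Csf1r (top) and Tnfrsf11a (bottom) as a percentage of the summed CPM of osteoclast effector genes (left) and of macrophage and monocyte genes (right) in each library, with the mean and SD at the right of each group. The groups overlap on the left, and every KO library lies above every WT library on the right.

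Other genes of the pathway were examined in 7 lists, of which 102 of 106 genes were tested, and 1 passed with edgeR, against 0.396% of all genes. DESeq2 called 26, against 9.03% of all genes, of which 24 were higher (3.61% of all genes) and 2 lower (5.43% of all genes). EdgeR called 31 without WT replicate 1 (9.06% of all genes), 11 without WT replicate 2 (3.78%) and 0 without WT replicate 3 or any 1 KO library. Jdp2, a basic leucine zipper factor needed for osteoclast formation, rose from 50.3 ± 0.750 to 69.7 ± 1.43 CPM (SD, n = 3 each; log2 difference 0.47, SE 0.06, adjusted p = 0.049, edgeR). The call was lost with RLE scaling, without the filter, with limma-voom, with the replicate block, with a term for Xist and without WT replicate 3 or any 1 KO library. Means of other genes below are in the same form, WT first. Jdp2 was the member called among 13 transcription factors that favour or restrain osteoclast formation. Of the 13, 4 were higher and 1 lower at an unadjusted p under 0.05, against 8.71% and 10.9% of all genes tested. Their median log2 difference was 0.18. Leaving out 1 library moved that median between 0.10, without WT replicate 1 or KO replicate 3, and 0.27, without WT replicate 2. Spi1, which encodes PU.1, stood at 43.2 ± 8.80 and 69.1 ± 2.12 CPM and Prdm1, a repressor of anti-osteoclastogenic genes, at 12.2 ± 3.02 and 22 ± 1.09 CPM, both called higher by DESeq2. Id2, an inhibitor of helix-loop-helix factors and the most abundant gene of the list, stood at 191 ± 7.06 and 152 ± 8.89 CPM and was called lower by DESeq2. Spi1, Prdm1 and Id2 were named after their values were seen.

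The osteoclast effector list stood highest, with a median log2 difference of 0.76 (0.56 without WT replicate 1). Of its 15 genes 0 passed with edgeR, 13 had an unadjusted p under 0.05, all higher in KO, and the libraries of 13 did not overlap. Over all genes tested 8.71% were higher at that unadjusted p, and 15.0% were higher without overlap. DESeq2 called every gene of the list higher except Ostm1, Calcr and Car2, against 3.61% of all genes. Without WT replicate 1 edgeR called the same genes higher, against 3.60% of all genes. Without WT replicate 3 or any KO library it called no gene of the list. Ctsk, the main collagen-degrading protease of osteoclasts, stood at 2164 ± 564 and 4138 ± 175 CPM and the gelatinase Mmp9 at 2111 ± 367 and 3370 ± 175 CPM. Ocstamp and Dcstamp, the membrane proteins needed for fusion of precursors, had log2 differences of 1.04 and 1.01. Car2, a carbonic anhydrase that red cells also hold, was the exception at −0.19. It ranged from 68.2 CPM in WT replicate 1 to 502 CPM in WT replicate 2, and from 263 to 371 CPM in KO. Without WT replicate 1 edgeR called Car2 lower, against 5.46% of all genes.

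Genes that act inside RANK-bearing cells were less far apart. Among the 21 adaptors, kinases and factors between RANK and the nucleus 0 passed with edgeR. At an unadjusted p under 0.05, 6 were higher and 0 lower, against 8.71% and 10.9% of all genes tested. Their median was 0.10. That median was 0.17 without WT replicate 1, 0.039 without WT replicate 2, −0.0045 without WT replicate 3 and 0.057 without KO replicate 3, so its sign rested on WT replicate 3. Nfatc1, the master transcription factor of osteoclasts, stood at 101 ± 2.76 and 136 ± 1.04 CPM (0.43, adjusted p = 0.0604, edgeR), and Map3k7, the kinase TAK1, at 102 ± 23.3 and 106 ± 4.91 CPM. Traf6, the adaptor that RANK recruits, stood at 45 ± 14.2 and 49.1 ± 1.32 CPM. The immediate early genes Jun and Fos were highest in WT replicate 1, at 181 and 63.5 CPM, against 35.9 to 52 CPM and 30.5 to 53.9 CPM in the other 5 libraries. The 13 ITAM adaptors and costimulatory receptors, which supply the calcium signal that acts with RANK, had a median of 0.45, with 0 called by edgeR (5 at an unadjusted p under 0.05) and 9 without overlap, all higher. Their median was 0.28 without WT replicate 1. Over all genes tested, 8.71% were higher at that unadjusted p and 15.0% were higher without overlap. Sirpa, a receptor that promotes fusion of macrophages, stood at 120 ± 11.2 and 155 ± 5.04 CPM, and the adaptor Tyrobp at 43.6 ± 15.6 and 64.6 ± 4.30 CPM, with 25.8 CPM in WT replicate 1.

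Upstream of the ligands, 17 of 20 signals and receptors that raise RANK ligand in stromal cells were tested, and Il6, Il11 and Fgf23 did not pass the filter on low counts. Their median was 0.15, and 0 passed with edgeR. An unadjusted p under 0.05 was reached by 6, 4 higher and 2 lower, against 8.71% and 10.9% of all genes tested. The median was 0.29 without WT replicate 2 and 0.038 without WT replicate 3, and 0.092 and 0.088 without KO replicates 2 and 3 in turn. The receptor of parathyroid hormone, Pth1r, stood at 257 ± 29 and 317 ± 14.7 CPM and Lifr, the receptor of leukaemia inhibitory factor, at 303 ± 70.1 and 335 ± 5.11 CPM. In this list DESeq2 called 3 genes higher and 1 lower, against 3.61% and 5.43% of all genes. Of these genes 2 are named here after their values were seen. Vdr, the vitamin D receptor, stood at 178 ± 43.3 and 297 ± 18.1 CPM and was called higher. Pthlh, the parathyroid hormone-like ligand of Pth1r, stood at 5.81 ± 1.99 and 3.01 ± 0.401 CPM and was called lower. The list of 14 signals and receptors that raise osteoprotegerin also held Dkk1 and Sost, secreted inhibitors of WNT signals, at 0.99 and −0.19. Its counts and median are thus not those of genes that raise osteoprotegerin alone. Of the 14, 5 were higher, Dkk1 among them, and 1 lower at an unadjusted p under 0.05, against 8.71% and 10.9% of all genes tested. With edgeR 0 passed, and the median was 0.05. This median had no stable sign: it was 0.15 without WT replicate 1, −0.016 and −0.039 without WT replicates 2 and 3, and 0.094 and −0.0096 without KO replicates 2 and 3. Beta-catenin, Ctnnb1, stood at 1247 ± 155 and 1644 ± 44.4 CPM and Tgfbr2 at 285 ± 47.3 and 302 ± 19 CPM.

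Proteins that bind or cut the 6 members made up the last list, with 9 of 10 genes tested, a median of 0.21 and 0 called by edgeR. Of the 9, 3 were higher and 0 lower at an unadjusted p under 0.05, against 8.71% and 10.9% of all genes tested. The sheddases Mmp14 and Adam10, which release RANK ligand from the cell surface, stood at 508 ± 138 and 642 ± 64.8 CPM and at 242 ± 40.7 and 278 ± 12.5 CPM. The other receptors of the ligands were Lgr4, which also binds RANK ligand, at 121 ± 20.5 and 151 ± 2.23 CPM, and Ptprz1, which also binds interleukin 34, at 138 ± 33.1 and 192 ± 15.1 CPM. Tnfsf10, the death ligand TRAIL that osteoprotegerin also captures, stood at 8.86 ± 1.72 and 8.30 ± 0.671 CPM. Lgr4, Ptprz1 and Tnfsf10 were named after their values were seen.

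**Figure D5:**
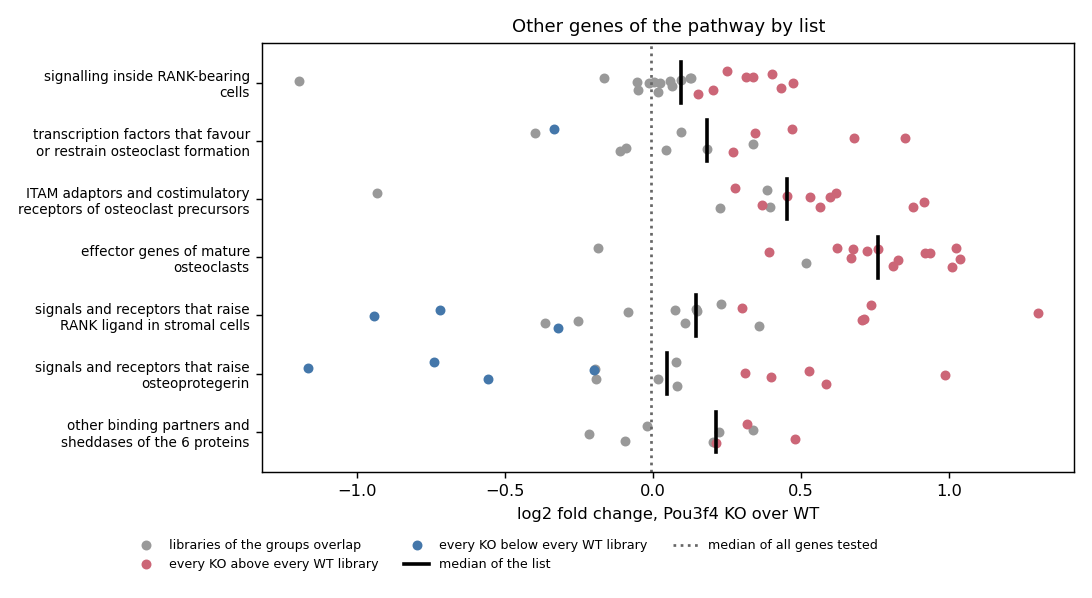
Fitted log2 fold change, KO over WT (x axis), of each tested gene (points) in 7 lists, with the list median (black bar) and the median of all genes tested (dotted line). Red and blue points are genes whose KO libraries all lie above or all below the WT libraries, and the osteoclast effector list has the highest median, 0.76.

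The genes most like each member were sought by the Pearson correlation of log2 CPM over the 6 libraries among 15109 other genes, as a description only. The libraries fall into 2 groups, so any gene with a like difference between them scores highly. For Csf1r the nearest were Nup107, a nuclear pore protein (0.9993), Ints13 (0.9978) and Hjurp (0.9974), and for Tnfrsf11a Fblim1 (0.9986), Col24a1 (0.9984) and Dnajc3 (0.9984). Il34 was nearest to Hopxos (0.9972), the beta-tubulin Tubb2a (0.9963) and Gap43, a growth cone protein (0.9958). Tnfsf11 was nearest to Mxra8os (0.9971), Rps3a1 (0.9951) and Epha2 (0.9935), Csf1 to Dnmt3b (0.9958), Tbc1d2b (0.9958) and Sh3pxd2a (0.9956), and Tnfrsf11b to Tmem72 (0.9959), Grb14 (0.9924) and Nlk (0.9919). With 6 libraries such values are common: 469 genes exceeded 0.95 for Csf1r and 128 for Il34.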

How the data were processed

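Per the labels' protocols, RNA was taken up in Trizol and a stranded TruSeq mRNA kit was used. Trimmomatic, HISAT2, HTSeq, Cufflinks and mm10 are named in the submitters' processing notes. For the annotation release and whether counting used strand, the answer is not given in the sources used here. Raw whole-number counts per gene, not normalised, were deposited by the authors. Of 55401 identifiers, 55141 were found in GENCODE M21, which gave exon lengths and overlaps.

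Counts were filtered with filterByExpr (minimum count of 10, 19687 genes kept), scaled by TMM and tested by quasi-likelihood in edgeR 4.0.16 (genotype alone), adjusted over all genes by Benjamini-Hochberg at 0.05. The edgeR test was tested on simulated data. DESeq2 1.42.0 and voom of limma 3.58.1 were alternatives, beside other scalings, filters, designs and leaving out each library. Ratios were compared by exact permutation of log2 values. A count of 0 allows up to 3 counts, 0.131 to 0.168 CPM. Intervals and this limit cover counting error only.

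The members, lists and tests were chosen with earlier results of these data known. Named were all members, list genes past the threshold (otherwise the 2 most abundant of a pathway list) and the 3 genes most correlated with each member. Other genes were named after their values were seen.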

Additional observations from a re-analysis of the deposited data

How the results depend on the processing

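All 6 members kept their direction in each of 15 alternatives. Of the 105 list medians recomputed, 99 moved by less than the spread between libraries and 6 by more, each of the 6 with 1 library left out. The number of genes called, 78, became 1603 with DESeq2, 1 with the replicate block and 0 with a term for Xist, and ranged from 0 to 1814 when each library was left out (0 without WT replicate 3 or any 1 KO library, with 2087 to 3364 genes at an unadjusted p under 0.05, and 3185 with the Xist term, edgeR). The number of members called, 0, became 2 with DESeq2 and ranged from 0 to 5 without 1 library. The number of pathway genes called, 1, became 26 with DESeq2 and 0 with RLE scaling, limma-voom, the replicate block or a term for Xist, and ranged from 0 to 31 without 1 library. The gene called without the filter was Tcirg1 in place of Jdp2. Without 1 library, the log2 difference of the Tnfsf11 to Tnfrsf11b ratio ranged from 0.32 to 1.06, that of Csf1 to Il34 from 0.58 to 0.86 and that of Tnfrsf11a to Csf1r from −0.024, without WT replicate 3, to 0.092. The cause of these shifts was not tested. Same-numbered libraries correlated at −0.131, −0.295 and −0.191 in their deviations from the group means, so the numbers were not taken as pairs. With the replicate block Csf1r stood at 0.75 and Tnfrsf11a at 0.80 (adjusted p = 0.22 each, edgeR), and the paired exact permutation p of the 3 ratios was 0.5, 0.25 and 1, with 0.25 the smallest possible. Il34, with 105 to 176 counts per library, has the least depth of the 6.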
